A study of Mus musculus with 6 samples.

Results

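The p53 targets and cell cycle arrest genes described here are 32 genes chosen by name: p53 itself, the proteins that restrain it, and genes known as its targets or as inhibitors of the cell cycle. Of these, 29 were measured, among 19505 gene symbols on the array, and each of the 29 had a single transcript cluster (a set of probes summarised as 1 value). Trp53, Bax and Gdf15 had no cluster paired with their symbol or gene ID and were not analysed here. RNA came from renal tubular epithelial cells released with collagenase from mouse kidneys that had been ischemic for 30 min and then reperfused for 24 h, an acute kidney injury model. In the PT2385 group (3 arrays, titled IRPT) the mice received PT2385, which blocks the pairing of HIF-2α with its partner ARNT, in doses of 10 mg/kg given 16 h ahead of the operation and again 1, 8 and 20 h afterwards. In the vehicle group (3 arrays, titled IR) the mice went through the same ischemia and reperfusion with vehicle. The titles were matched to the 2 arms by this wording, and the protocol writes the injected compound once as PT2384. Strain, age and sex were not given in the labels, and uninjured kidneys were not analysed here, so every difference is between treatments after injury.

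p53 is a transcription factor that is held low by the ubiquitin ligase MDM2 and becomes active when DNA damage, hypoxia or other stress releases it. Active p53 binds response elements made of a pair of decamer half-sites and raises genes that stop the cell cycle, repair DNA or trigger cell death, and it also raises Mdm2, which closes a feedback loop. In the ischemic kidney, p53 activation in tubular cells is known to accompany arrest and apoptosis.

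Response elements are shown first because they are the sequence feature that makes a gene a p53 target. RefSeq promoter windows (GRCm38.p6) of 300 bases, from 250 before to 50 after a transcription start, were matched for 24 of the 32 genes, 21 of them measured. The p53 decamer half-site, which reads the same on both strands, was found without mismatch in 33.3% of the 33 windows of these genes and in 8.36% of all 32851 windows. An element of 20 bases made of adjoining half-sites, with at most 2 mismatches, was in 2 of these 33 windows and in 0.798% of all windows. Many of the genes were chosen as known p53 targets, so a higher share describes that choice. Such matches do not show that p53 was bound. The 250 bases before a start are printed 5′ to 3′ for Cdkn1a and Ccng1, the genes with the element of 20 bases. They are also printed for Mdm2, the feedback gene, which had a half-site alone within the sequence searched. Sequence outside the windows of 300 bases was not searched, so an element there would have been missed. Capitals mark the half-sites and elements.
Cdkn1a, chr17:29090729-29090978, plus strand: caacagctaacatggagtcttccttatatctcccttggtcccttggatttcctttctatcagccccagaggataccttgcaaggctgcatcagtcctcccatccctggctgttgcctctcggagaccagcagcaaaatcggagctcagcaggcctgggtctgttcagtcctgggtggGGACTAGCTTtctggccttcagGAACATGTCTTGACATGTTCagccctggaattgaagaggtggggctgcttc
Ccng1, chr11:40755287-40755536, minus strand: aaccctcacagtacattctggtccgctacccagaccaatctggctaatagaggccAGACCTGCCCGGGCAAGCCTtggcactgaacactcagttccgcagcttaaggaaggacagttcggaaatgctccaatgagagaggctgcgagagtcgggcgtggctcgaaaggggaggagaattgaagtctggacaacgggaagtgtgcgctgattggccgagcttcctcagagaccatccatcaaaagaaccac
Mdm2, chr10:117710759-117711008, minus strand: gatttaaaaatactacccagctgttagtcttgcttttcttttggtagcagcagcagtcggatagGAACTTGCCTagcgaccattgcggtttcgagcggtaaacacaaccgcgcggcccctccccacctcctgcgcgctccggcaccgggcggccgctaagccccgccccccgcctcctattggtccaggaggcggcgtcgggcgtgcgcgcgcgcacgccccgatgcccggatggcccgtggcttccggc
The element of Cdkn1a, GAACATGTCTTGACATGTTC, began 51 bases before the start of the window's transcript. That of Ccng1, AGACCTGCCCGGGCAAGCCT, began 195 bases before the start of its own window's transcript. Each had 1 mismatch. A gene can have several windows, and for these genes only windows holding the element are printed. Distances to other starts of the same gene were not measured. The half-site of Mdm2, GAACTTGCCT, began 186 bases before the start of the window's transcript. Among the other measured genes, those with half-sites included Aen (GGGCTTGTCC), Ei24 (GGGCATGCCC), Gadd45a (GGGCTAGCCC), Sesn1 (AAGCTTGTTT) and Polk (GAACTAGCCT). A half-site was found for 10 of the 24 genes with windows, and not all of the 10 are named here. A gene left unnamed is therefore not shown to lack a half-site.

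Values are log2 signals as deposited, and differences are PT2385 minus vehicle on that scale, so -1 would be a halving. The fit was limma over all 22206 transcript clusters, with Benjamini-Hochberg adjustment over all of them and a threshold of 0.05. No filter on low values was used. Array medians were near 6.24 under PT2385 and near 6.20 under vehicle, and the median difference over all clusters was 0.016. Proximal tubule markers such as Lrp2, the endocytic receptor gene, were bright (means of 11.50 under PT2385 and 11.47 under vehicle). Y-linked genes separated the groups. Eif2s3y averaged 3.21 ± 0.16 under PT2385 and 9.20 ± 0.10 under vehicle (SD, n = 3 each), Uty 2.99 ± 0.23 under PT2385 and 8.66 ± 0.09 under vehicle, and Kdm5d 3.32 ± 0.07 under PT2385 and 6.47 ± 0.12 under vehicle. A difference in sex and an effect of PT2385 therefore cannot be told apart for any gene below. The labels do not say whether each array stands for its own animal. The p-values therefore measure how these samples vary, and that variation may be technical.

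Most of the 29 measured genes had somewhat lower signals in the PT2385 group. In limma over all clusters 0 of the 29 passed the threshold, where 0.829% of clusters were called (0.495% lower and 0.333% higher). At an unadjusted p under 0.05, 8 of the 29 (27.6%) were lower and 0 were higher, against 6.54% lower and 7.94% higher among all clusters. These 8 were Perp, Trp53inp1, Mdm2, Plk2, Apaf1, Ccng1, Btg2 and Zmat3. All PT2385 arrays lay below all vehicle arrays for 7 of the 29 genes (24.1%, against 9.13% of all clusters), and the reverse held for 1 gene (3.45%, against 11.6%). The difference was negative for 20 of the 29 genes (69.0%), against 46.5% of all clusters, and the median difference was -0.13. The share was also high for 25 kinases and cofactors of p53 (68%) and 11 partners of intrinsic apoptosis (81.8%), both described below. In each of the other pathway lists described below it was 44.8% or lower. With each array centred on its median, 24 of the 29 were negative. The median over all clusters was also lower with that centring (-0.030, against 0.016 without it). The share of all clusters below 0 was not counted there. Without any 1 array the median ran from -0.27 without vehicle replicate 1 to -0.09 without PT2385 replicate 1, and it was -0.22 without PT2385 replicate 3 and -0.24 without vehicle replicate 3.

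**Figure D1:**
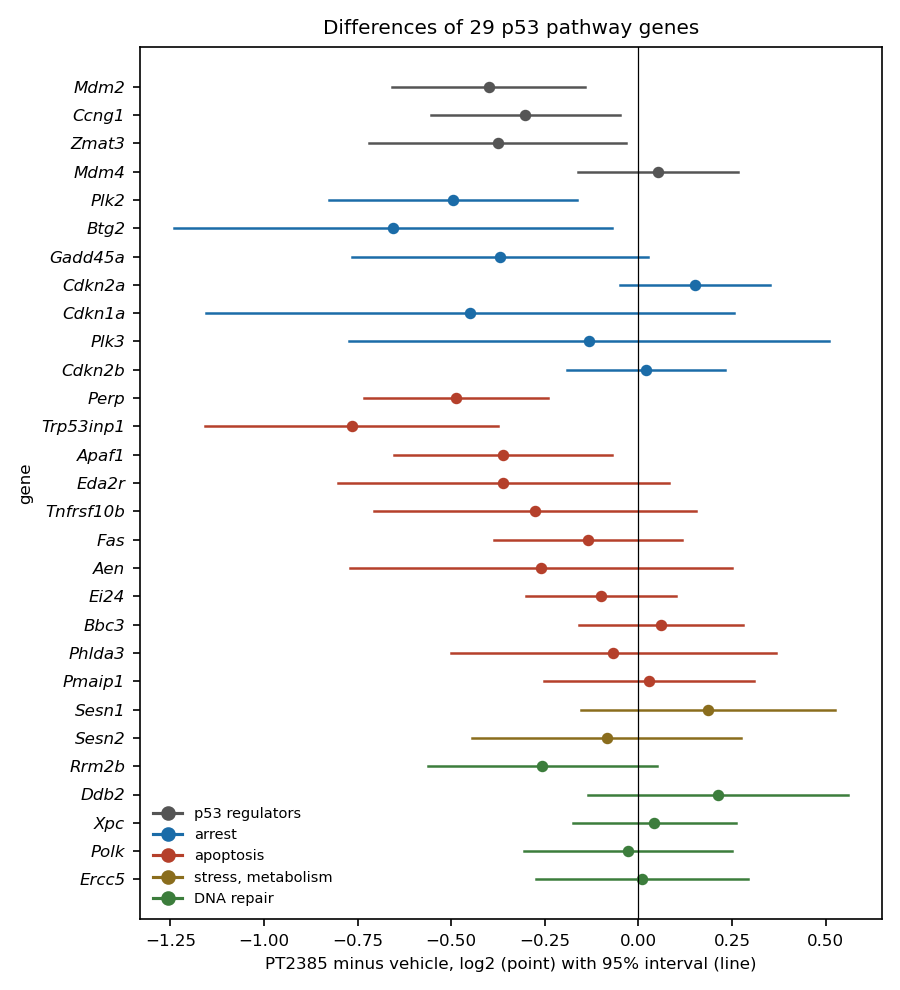
Differences of the 29 measured genes, PT2385 minus vehicle in log2 units, as points with 95% intervals from limma's moderated variance, coloured by role and ordered by p within each role. The points of 20 genes lie left of 0, and the lowest belongs to Trp53inp1 at -0.77.

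Transcripts of other cells in the isolates also differed between the groups, and their part in these results was not tested. The summed linear signal of 5 neutrophil markers was 148 to 289 in the PT2385 arrays, against 361 to 399 in the vehicle arrays. All 5 were lower, and the receptor gene Csf3r passed (-1.04, SE 0.16, adjusted p = 0.0326 by limma). The groups did not overlap for 3 of the 5, but did for Cxcr2 (-0.13) and Retnlg (-0.24). The summed signal of 7 macrophage and monocyte markers was 683 to 764 in the PT2385 arrays, against 898 to 1291 in the vehicle arrays. Of these, 5 of 7 were lower, and the lysozyme gene Lyz2 passed (-1.19, SE 0.16, adjusted p = 0.0202 by limma). The gap between these sums rested on Lyz2: without it, a calculation added after the data were seen, they were 526 to 602 in the PT2385 arrays, against 577 to 798 in the vehicle arrays, and overlapped. Itgam (-0.95) and the monocyte gene Ccr2 (-1.15) did not overlap between groups. The macrophage genes Csf1r (-0.09), Adgre1 (-0.05), C1qa (0.11) and C1qb (0.23) did overlap, and the median of the 7 was -0.09. Markers of distal segments were brighter under PT2385, although 0 of them passed. The 7 loop and distal convoluted tubule markers summed to 13077 to 16905 in the PT2385 arrays, against 9639 to 11438 in the vehicle arrays, with 6 of 7 higher, and the 7 collecting duct markers to 3657 to 4010 under PT2385, against 2175 to 2816 under vehicle, with 7 of 7 higher. The organic anion transporter gene Slc22a6 was the 1 of 8 proximal tubule markers that passed (-0.97, SE 0.10, adjusted p = 0.00572 by limma). The sums overlapped for the 8 proximal tubule markers (11644 to 22975 in the PT2385 arrays, against 15689 to 19907 in the vehicle arrays), 6 endothelial markers (1895 to 2182 under PT2385, against 1688 to 2353 under vehicle) and 5 fibroblast and pericyte markers (2270 to 2521 under PT2385, against 1863 to 2973 under vehicle). They also overlapped for 3 podocyte markers (605 to 715 under PT2385, against 604 to 632 under vehicle) and 6 lymphocyte markers (200.2 to 228 under PT2385, against 217 to 296 under vehicle), of which Cd3d, Cd3e, Cd79a and Ms4a1 were at or below negative control signal in both groups. In such mixed samples, fewer cells of a type and less RNA per cell cannot be told apart.

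Of the genes that restrain or feed back on p53, 3 of 4 had lower values and 0 passed, with a median of -0.34. Mdm2, the ligase that marks p53 for degradation, had 9.54, 9.51 and 9.23 in the PT2385 arrays, against 9.79, 9.90 and 9.79 in the vehicle arrays. The groups did not overlap, and the difference was -0.40 (SE 0.11, adjusted p = 0.181 by limma). Ccng1, which encodes cyclin G1, a p53 target with a full response element in the window printed above, had 11.32, 11.06 and 11.02 in the PT2385 arrays, against 11.49, 11.45 and 11.37 in the vehicle arrays. Here too every PT2385 array was below every vehicle array, by a mean of -0.30 (SE 0.11, adjusted p = 0.271 by limma). Zmat3, an RNA-binding zinc finger gene induced by p53, had 7.03, 7.02 and 7.33 in the PT2385 arrays, against 7.44, 7.79 and 7.28 in the vehicle arrays. PT2385 replicate 3 lay above vehicle replicate 3, so the groups overlapped, with a difference of -0.38 (SE 0.15, adjusted p = 0.306 by limma) that was -0.23 without vehicle replicate 2. Mdm4, the relative of Mdm2 that blocks p53's activation domain, had means of 8.40 ± 0.05 under PT2385 and 8.35 ± 0.09 under vehicle (SD, n = 3 each), which differ by 0.05 with a 95% interval from -0.16 to 0.27.

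The genes of apoptosis held the smallest p-values: 9 of 11 had a negative difference, 0 passed, and the median was -0.26. That median was -0.12 without PT2385 replicate 1 and -0.14 without vehicle replicate 2. Perp, a p53 target that encodes a tetraspan membrane protein of desmosomes and cell death, had 9.38, 9.24 and 9.33 in the PT2385 arrays, against 9.77, 9.97 and 9.68 in the vehicle arrays. Its arrays were close together within each group and apart between groups. The difference was -0.49 (SE 0.11, adjusted p = 0.0994 by limma), a PT2385 signal 0.714 times that of vehicle. Trp53inp1, whose nuclear protein promotes p53 activity and autophagy, had 6.29, 5.63 and 6.07 in the PT2385 arrays, against 6.92, 6.80 and 6.58 in the vehicle arrays. The groups did not overlap and the PT2385 arrays were more spread. Its difference of -0.77 (SE 0.17, adjusted p = 0.104 by limma) was the lowest of the 29. When limma weighted the arrays by their quality, Perp (adjusted p = 0.0348) and Trp53inp1 (adjusted p = 0.0269) passed the threshold, and over all alternatives their adjusted p reached 0.363 and 0.281.

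Apaf1, the scaffold of the apoptosome that activates caspase-9, had 5.91, 5.59 and 5.86 in the PT2385 arrays, against 6.01, 6.34 and 6.09 in the vehicle arrays. The groups stood apart by a small gap, with a difference of -0.36 (SE 0.13, adjusted p = 0.256 by limma). Ei24, an endoplasmic reticulum protein gene induced by p53, had 8.71, 8.61 and 8.70 in the PT2385 arrays, against 8.77, 8.77 and 8.79 in the vehicle arrays. It also did not overlap, but the difference was only -0.10 (SE 0.09, adjusted p = 0.636 by limma). The death receptor genes overlapped between groups. Tnfrsf10b, the mouse TRAIL receptor, had 6.21, 6.72 and 6.89 in the PT2385 arrays, against 6.62, 6.95 and 7.08 in the vehicle arrays, a difference of -0.28 (95% interval -0.71 to 0.15) that was -0.079 without PT2385 replicate 1. Fas, the receptor of Fas ligand, had a difference of -0.13 (95% interval -0.39 to 0.12), and -0.043 without the same array. Eda2r, an X-linked TNF receptor family gene, had -0.36 (95% interval -0.80 to 0.08), and -0.16 without vehicle replicate 2. The PT2385 mean of Eda2r, 4.47, was level with negative control signal, whose array medians reached 4.47.

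The remaining apoptosis genes overlapped between groups. Bbc3 and Pmaip1, which encode the BH3-only killers PUMA and NOXA, showed differences of 0.06 and 0.03, with 95% intervals from -0.16 to 0.28 and from -0.25 to 0.31. Both are textbook transcriptional triggers of p53-dependent cell death, and neither moved beyond the spread of the arrays. Aen, a p53-induced nuclease gene, had 6.64, 6.71 and 6.89 in the PT2385 arrays, against 6.77, 7.59 and 6.67 in the vehicle arrays. Its vehicle mean rested on replicate 2, and the difference of -0.26 became 0.031 without that array. Phlda3, a p53 target that opposes AKT signalling, had a difference of -0.07 that became 0.14 without vehicle replicate 2.

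**Figure D2:**
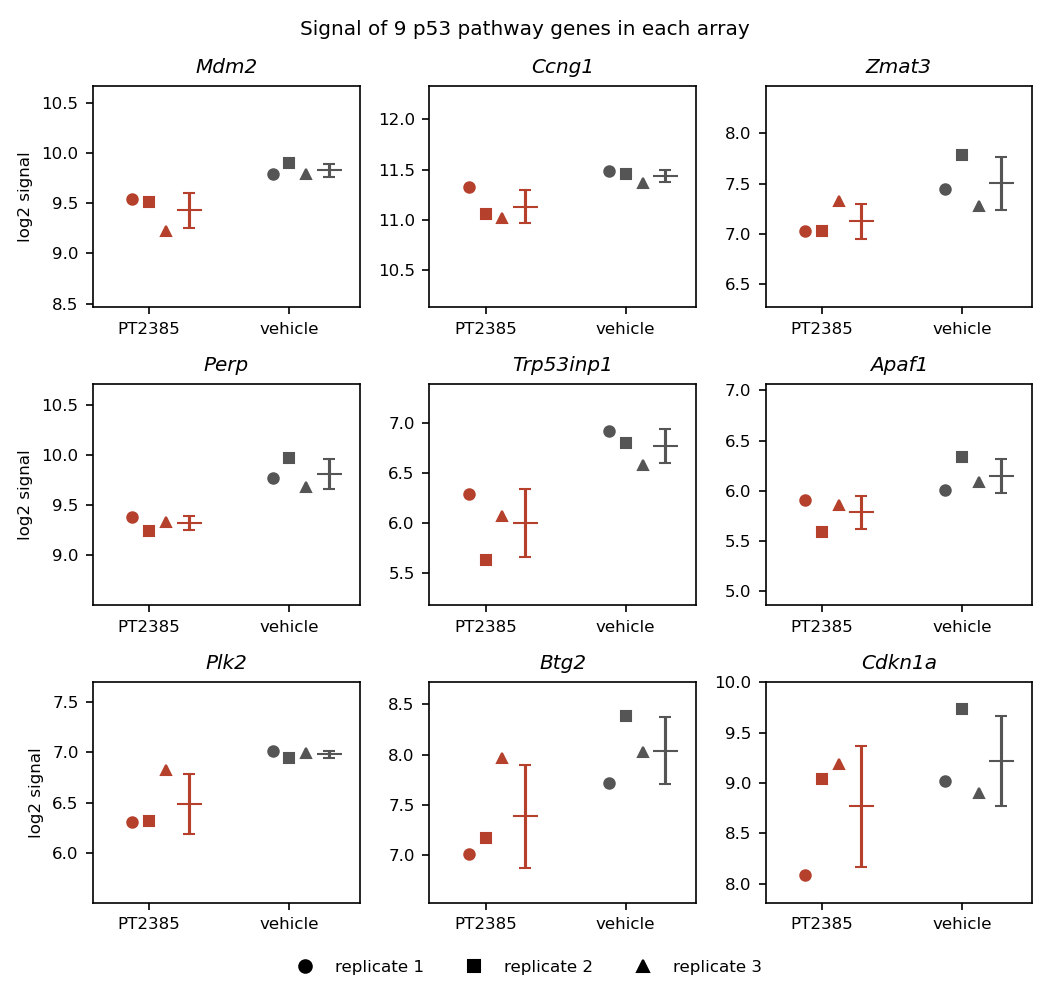
Log2 signal of 9 genes in each array, PT2385 on the left and vehicle on the right of each panel, with the mean and SD beside the points and marker shapes for the replicate number. Each panel spans the same number of log2 units. The groups stand apart for Mdm2, Ccng1, Perp, Trp53inp1, Apaf1 and Plk2, and overlap for Zmat3, Btg2 and Cdkn1a.

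The arrest genes were lower by a median of -0.37 over 7 genes, 5 of which had a negative difference and 0 of which passed. They were the most uneven between replicates. Cdkn1a, the CDK inhibitor that carries out most of p53's arrest of the cell cycle, had 8.08, 9.04 and 9.19 in the PT2385 arrays, against 9.02, 9.74 and 8.90 in the vehicle arrays. PT2385 replicate 1 was well below the other 5 arrays, and the other PT2385 arrays lay inside the vehicle range. The difference was -0.45 (SE 0.31, 95% interval -1.15 to 0.26, adjusted p = 0.540 by limma), and it was -0.11 without PT2385 replicate 1 and -0.19 without vehicle replicate 2. Btg2, an antiproliferative p53 target, had 7.01, 7.17 and 7.97 in the PT2385 arrays, against 7.72, 8.38 and 8.03 in the vehicle arrays. PT2385 replicates 1 and 2 were the lowest and replicate 3 lay among the vehicle arrays, with a difference of -0.66 (SE 0.26, adjusted p = 0.300 by limma).

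Plk2, a polo-like kinase gene induced by p53 under stress, had 6.31, 6.32 and 6.83 in the PT2385 arrays, against 7.01, 6.94 and 6.99 in the vehicle arrays. The vehicle arrays were nearly equal and all PT2385 arrays were below them, by -0.49 (SE 0.14, adjusted p = 0.193 by limma). Without PT2385 replicate 3 the difference of Plk2 was -0.66 and passed the threshold (adjusted p = 0.0376), and over all alternatives its adjusted p reached 0.499. Gadd45a, a growth arrest and DNA damage response gene, had 8.45, 8.83 and 9.07 in the PT2385 arrays, against 8.91, 9.22 and 9.32 in the vehicle arrays. The groups overlapped, with a difference of -0.37 (SE 0.17, adjusted p = 0.373 by limma) that was -0.20 without PT2385 replicate 1. Plk3, a related stress kinase gene, had 6.59, 7.02 and 7.62 in the PT2385 arrays, against 6.92, 7.72 and 6.99 in the vehicle arrays. These ranges overlapped widely, and the sign of its difference of -0.13 turned to 0.11 without PT2385 replicate 1 and to 0.12 without vehicle replicate 2.

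Cdkn2b and Cdkn2a are neighbours on chromosome 4, encode INK4 inhibitors of CDK4 and CDK6 and are known from senescent cells. Cdkn2b averaged 5.93 ± 0.02 under PT2385 and 5.91 ± 0.09 under vehicle (SD, n = 3 each), a difference of 0.02 that was below 0 with each array centred on its median (-0.026), with quantile normalization (-0.030) and with cyclic loess (-0.053). Cdkn2a, which encodes both an INK4 inhibitor and the MDM2 antagonist ARF, had 3.53, 3.62 and 3.60 in the PT2385 arrays, against 3.41, 3.42 and 3.47 in the vehicle arrays. All of these lie below negative control signal, so Cdkn2a was not detectable and its non-overlapping groups give no measure of a change. Its difference was 0.15 (adjusted p = 0.472 by limma). The median of the arrest genes was -0.11 without PT2385 replicate 1, -0.19 without vehicle replicate 2 and -0.51 without PT2385 replicate 3.

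The DNA repair genes showed no common direction: 2 of 5 were negative, 0 passed, 0 had an unadjusted p under 0.05, and the median was 0.0095. Rrm2b, the p53-inducible subunit of ribonucleotide reductase, had 7.87, 7.38 and 7.49 in the PT2385 arrays, against 7.82, 7.82 and 7.87 in the vehicle arrays. PT2385 replicates 2 and 3 were low and replicate 1 was level with vehicle, for a difference of -0.26 (SE 0.13, adjusted p = 0.420 by limma) that was -0.40 without PT2385 replicate 1 and -0.15 without PT2385 replicate 2. Ddb2, a sensor of ultraviolet damage, had 6.08, 6.29 and 6.34 in the PT2385 arrays, against 5.94, 6.34 and 5.79 in the vehicle arrays. The groups overlapped, and the difference was 0.21 (95% interval -0.13 to 0.56), with 0.37 without vehicle replicate 2 and 0.095 without vehicle replicate 3. Xpc, which recognises lesions for nucleotide excision repair, had 0.04 (95% interval -0.17 to 0.26), Ercc5, the endonuclease that cuts beside the lesion, 0.0095 (95% interval -0.27 to 0.29) and Polk, a polymerase that copies past lesions, -0.03 (95% interval -0.31 to 0.25). A change of 2-fold in either direction lies outside the intervals of all 5 genes, although that of Rrm2b reached -0.56. The same held for every other measured member except Trp53inp1, Btg2 and Cdkn1a. The signs of Xpc, Ercc5 and Polk turned under other scalings: with each array centred on its median Xpc was -0.0036 and Ercc5 -0.036, and with quantile normalization Polk was 0.011.

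The sestrins link p53 and other stress sensors to AMPK and mTORC1, and neither passed. Sesn1 had 7.62, 7.19 and 7.09 in the PT2385 arrays, against 6.98, 7.15 and 7.22 in the vehicle arrays, and PT2385 replicate 1 alone stood above the rest. Its difference was 0.19 (SE 0.15, adjusted p = 0.598 by limma), and it was 0.026 without that array. Sesn2 had 6.49, 7.05 and 7.09 in the PT2385 arrays, against 6.95, 6.93 and 7.01 in the vehicle arrays. The same array was the lowest for Sesn2, whose difference of -0.08 (SE 0.16, adjusted p = 0.842 by limma) was 0.11 without it.

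Single arrays carried much of the pattern. PT2385 replicate 1 was the lowest of the 6 arrays for 10 of the 29 genes, and 19.9% of all clusters were lowest there. Vehicle replicate 2 was the highest of the 6 for 15 of the 29, and 16.5% of all clusters were highest there. The mean deviation of the 29 genes from their 6-array averages was -0.17, -0.13 and 0.0090 in PT2385 replicates 1, 2 and 3, against 0.0086, 0.25 and 0.026 in vehicle replicates 1, 2 and 3. PT2385 replicate 3 and vehicle replicate 1 therefore had almost the same mean. For the arrest genes the deviations were -0.44, -0.15 and 0.17 in the PT2385 arrays, against -0.024, 0.35 and 0.091 in the vehicle arrays, so PT2385 replicate 3 exceeded vehicle replicates 1 and 3. For the apoptosis genes they were -0.18, -0.18 and -0.015 in the PT2385 arrays, against 0.058, 0.31 and 0.0051 in the vehicle arrays. For the 4 regulators they were -0.068, -0.16 and -0.15 in the PT2385 arrays, against 0.10, 0.25 and 0.035 in the vehicle arrays. The regulators and the apoptosis genes kept the groups apart, although the gap of the apoptosis genes was narrow. The replicates of Cdkn1a had an SD of 0.60 under PT2385 and 0.45 under vehicle, beside median SDs over all clusters of 0.129 under PT2385 and 0.128 under vehicle.

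**Figure D3:**
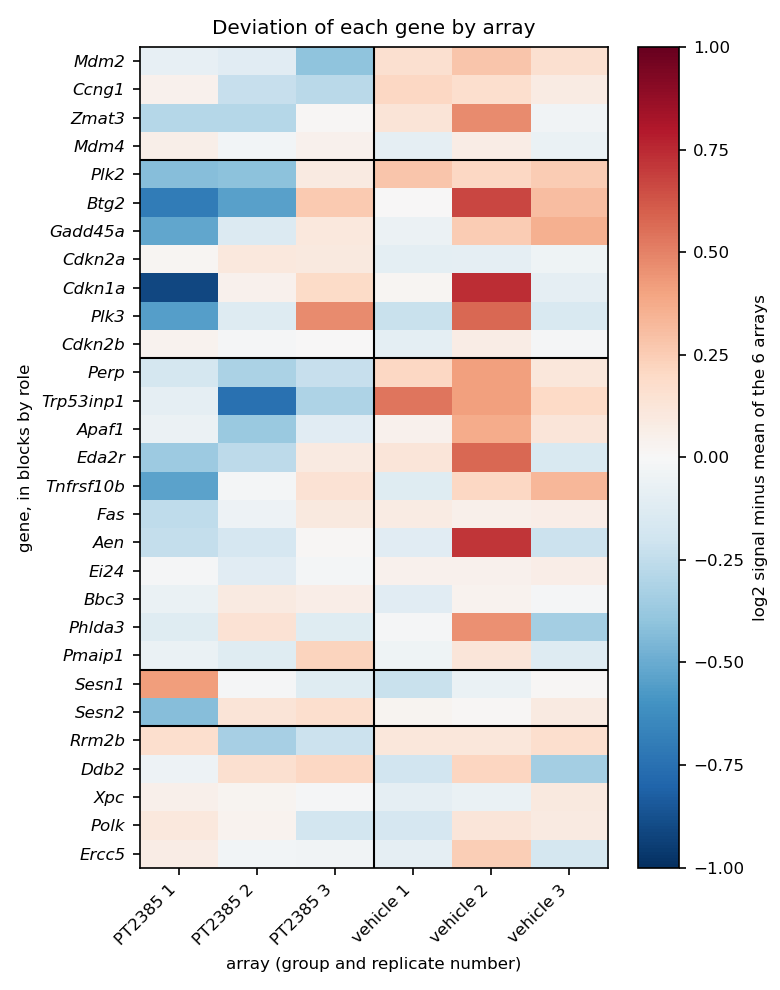
Deviation of each of the 29 genes (rows, in blocks by role) from its mean over the 6 arrays, in log2 units, with PT2385 arrays left of vehicle arrays. The lowest values are those of Cdkn1a and Btg2 in PT2385 replicate 1 and Trp53inp1 in PT2385 replicate 2, and vehicle replicate 2 is high for Cdkn1a, Btg2, Plk3, Aen and Eda2r.

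**Figure D4:**
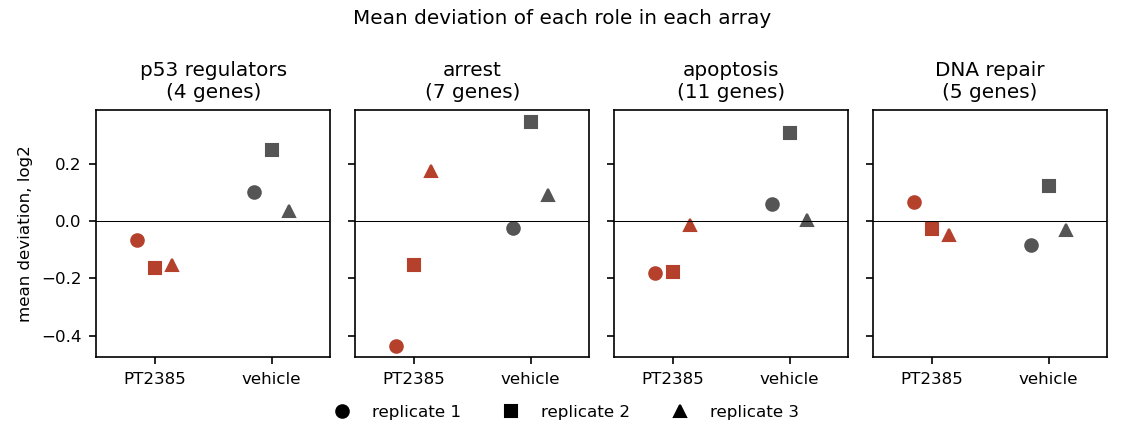
Mean deviation from the 6-array average of the p53 regulators, arrest, apoptosis and DNA repair genes in each array, in log2 units, PT2385 left of vehicle. The PT2385 arrays lie below the vehicle arrays for regulators (-0.16 to -0.068 under PT2385, against 0.035 to 0.25 under vehicle) and for apoptosis genes, and overlap them for arrest and repair genes.

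Among the kinases and cofactors that activate or restrain p53, 0 of 25 passed in limma, 17 were negative (68%, against 46.5% of all clusters), and the median was -0.03. With an unadjusted p under 0.05, 1 was higher and 0 lower, against 7.94% higher and 6.54% lower among all clusters. All PT2385 arrays lay below all vehicle arrays for 4 of the 25 (16%, against 9.13% of all clusters). They lay above for 1 (4%, against 11.6%). The histone gene H2ax, whose phosphorylated protein marks DNA breaks, had 9.08, 8.98 and 8.64 in the PT2385 arrays, against 8.74, 8.26 and 8.44 in the vehicle arrays. Prkdc, the catalytic subunit of the DNA-dependent protein kinase, had -0.23 (adjusted p = 0.369) and H2ax had 0.42 (adjusted p = 0.283 by limma for both). The PT2385 arrays of H2ax were high but overlapped the vehicle arrays, while those of Prkdc all lay below the vehicle arrays.

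Other p53 targets, outside the 29 genes, were mixed in sign, and those with the smallest p were higher. Of 29 measured, 13 were negative (44.8%, against 46.5% of all clusters), 0 passed, and the median was 0.015. At an unadjusted p under 0.05, 6 were higher and 0 lower, against 7.94% higher and 6.54% lower among all clusters. All PT2385 arrays lay above all vehicle arrays for 7 of these other targets (24.1%, against 11.6% of all clusters). They lay below for 0, against 9.13% of all clusters. Both counts lean the opposite way to those of the 29 members. Cd82, a tetraspanin gene known as a metastasis suppressor, had 11.01, 10.97 and 11.01 in the PT2385 arrays, against 10.23, 10.52 and 10.61 in the vehicle arrays. The groups did not overlap, and the difference was 0.55 (SE 0.12, adjusted p = 0.0891 by limma). Ephx1, a microsomal epoxide hydrolase gene, had 8.79, 8.69 and 8.87 in the PT2385 arrays, against 8.13, 8.42 and 7.78 in the vehicle arrays, a difference of 0.68 (SE 0.16, adjusted p = 0.114 by limma).

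Other inhibitors and partners of the arrest machinery showed little. Of 16 CDK inhibitors, GADD45 and cyclin G relatives, pocket proteins and their partners 0 passed and 0 had an unadjusted p under 0.05, with a median of 0.026. The pocket protein gene Rbl2 (0.23, adjusted p = 0.435) and the cyclin gene Ccng2 (0.17, adjusted p = 0.485 by limma for both) had the smallest p. Of 14 genes of G1 and S phase, mostly cyclins, CDKs and E2F genes, 0 passed. At an unadjusted p under 0.05, 2 were higher and 1 (7.14%) lower, against 7.94% higher and 6.54% lower among all clusters. The smallest p belonged to E2f2 (-0.26, adjusted p = 0.281) and Ccnd3 (0.24, adjusted p = 0.282 by limma for both). The urinary arrest biomarkers of acute kidney injury, TIMP-2 and IGFBP7, are encoded by Timp2 and Igfbp7. Igfbp7 had 12.83, 12.86 and 12.83 in the PT2385 arrays, against 12.60, 12.61 and 12.64 in the vehicle arrays. Its groups were tight and apart, with a difference of 0.22 (SE 0.09, adjusted p = 0.289 by limma), while Timp2 overlapped with 0.09 (SE 0.13, adjusted p = 0.773 by limma).

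Of 18 other genes of excision repair and lesion bypass 0 passed, and the median was 0.040. With an unadjusted p under 0.05, 2 were higher and 3 (16.7%) lower, against 7.94% higher and 6.54% lower among all clusters. Rrm2, the subunit of ribonucleotide reductase that serves S phase, had 8.80, 8.56 and 8.40 in the PT2385 arrays, against 8.28, 7.67 and 7.93 in the vehicle arrays. Its groups did not overlap, and the difference was 0.63 (SE 0.17, adjusted p = 0.160 by limma), with the opposite sign to its p53-inducible relative Rrm2b. Rev3l, the catalytic subunit gene of polymerase zeta, had -0.32 (adjusted p = 0.227 by limma). Of 11 partners of intrinsic apoptosis 0 passed, 9 were negative (81.8%, against 46.5% of all clusters), and the median was -0.12. With an unadjusted p under 0.05, 1 was higher and 1 (9.09%) lower, against 7.94% higher and 6.54% lower among all clusters. All PT2385 arrays lay below all vehicle arrays for 3 of the 11 (27.3%, against 9.13% of all clusters). They lay above for 1 (9.09%, against 11.6%). Bid, a BH3-only gene that joins death receptors to mitochondria, had 7.18, 6.82 and 6.79 in the PT2385 arrays, against 7.40, 7.57 and 7.48 in the vehicle arrays, a difference of -0.55 (SE 0.13, adjusted p = 0.110 by limma). Bcl2, the survival gene that such proteins oppose, was on the other side, with 9.01, 8.86 and 8.55 in the PT2385 arrays, against 8.40, 8.54 and 8.31 in the vehicle arrays, a difference of 0.39 (SE 0.13, adjusted p = 0.246 by limma).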

How the data were processed

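One array per sample was read for 3 PT2385 and 3 vehicle samples. The deposited values are log2 signals per transcript cluster, made by the authors with Transcriptome Analysis Console, per the submitters' processing notes. The sources used here do not give its version, background correction, summarisation, normalization or genome build. After removal of 6640 control rows, 22206 clusters were fitted with limma 3.58.1 in R 4.3.3 (lmFit, eBayes, treatment as the only term, 2-sided). The fit was tested on simulated arrays. The script took clusters by the array annotation's symbols, and all 32 members are accounted for in the report. Summed marker signals are sums of 2 to the power of the log2 value. No detection calls were used. Dim signal was judged against 5222 negative control rows, whose medians per array reached 4.47. The number of arrays limits precision. The highest share of equal values between a pair of arrays was 0.234%. Members, gene lists and roles were chosen with earlier results of these data known. All measured members are named, and from each pathway list those past the threshold, or the 2 with the smallest p, besides Timp2, Igfbp7 and the Y-linked genes; marker genes named were chosen after their values were seen. Alternatives were the replicate block, 3 rescalings, a filter on dim clusters, 1 cluster per gene, the mean of a gene's clusters, a robust trended prior, array weights, omission of X and Y, and omission of each array.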

Additional observations from a re-analysis of the deposited data

How the results depend on the processing

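No member passed under most alternatives. Array weights gave 456 called clusters and 2 members (Perp and Trp53inp1), and omission of single arrays gave 42 to 179 clusters and 0 to 1 members (Plk2). Without single arrays, 16 to 22 members had a negative difference and their median lay between -0.27 and -0.090. Of 462 member differences under alternatives 24 changed sign, in 9 genes, none of them called: with each array centred on its median Cdkn2b (-0.026), Pmaip1 (-0.018), Xpc (-0.0036) and Ercc5 (-0.036), with quantile normalization Cdkn2b (-0.030) and Polk (0.011), with cyclic loess Cdkn2b (-0.053), and with array weights Pmaip1 (-0.033), Sesn2 (0.023) and Ercc5 (-0.018). Without single arrays the ranges were -0.024 to 0.063 for Cdkn2b, -0.078 to 0.096 for Pmaip1, -0.075 to 0.14 for Ercc5, -0.12 to 0.057 for Polk, -0.19 to 0.11 for Sesn2, -0.40 to 0.12 for Plk3, -0.25 to 0.14 for Phlda3 and -0.43 to 0.031 for Aen. The causes were not tested. With the replicate number as a block, 178 clusters and 0 members were called. Same-numbered arrays had correlations of deviations of 0.14, 0.025 and -0.059 across clusters, so the numbers were not taken as pairs. Clusters without PT2385 replicate 2, vehicle replicate 1, vehicle replicate 2 and vehicle replicate 3 were 42, 81, 65 and 72. The filter on dim clusters left out Cdkn2a, and omission of X and Y left out Eda2r.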
